A study of Mus musculus with 20 samples.

Results

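The genes for the proteins of the cytosolic ribosome, with the paralogs of these genes, were followed in testis RNA from 5 groups of mice. A gene was counted in when its symbol began with Rps, Rpl or Rplp and a digit, when it was neither an Rps6k kinase gene nor named as a pseudogene, and when it had at least 40 counts summed over the 20 libraries. By this rule 85 of the 22066 symbols in the table were members. They were 43 proteins of the large subunit, 30 of the small subunit, the 3 stalk proteins Rplp0, Rplp1 and Rplp2, 8 paralogs (Rpl10l, Rpl39l, Rpl36al, Rpl22l1, Rps27l, Rpl3l, Rpl7l1 and Rps27rt) and Rps19bp1, a binding partner of Rps19 that is not a subunit. Rpl3l with 366 counts and Rps18 with 378 were the members nearest to the count minimum, and Rps23rg1 with 22 fell outside it. Rps27 and Rps27rt held the same values in every library, so the members made 84 distinct rows.

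All mice were NSG males, an immunodeficient strain without mature lymphocytes, 6 weeks old at the start, with 4 libraries in each group. The groups were High-VCR and Low-VCR (engrafted mice given vincristine, with high or low leukemic infiltration of the blood), VCR (mice given vincristine), ALL (engrafted mice given saline) and NC (control mice given saline). Engrafted mice had received 400000 cells of a patient-derived B-cell acute lymphoblastic leukemia by tail vein, and vincristine, a microtubule poison, was given by a weekly intraperitoneal dose of 0.5 mg/kg for 3 weeks from day 69. The sample labels of VCR and NC name no injected cells, while the description of the series calls all groups PDX mice, so whether these mice were engrafted is uncertain, and comparisons with engrafted groups rest on the sample labels. The infiltration groups were formed from what was measured in the mice, not assigned. The labels do not say that libraries of a group came from separate mice, so the p-values measure the spread between libraries. Library totals were 13064754 to 16357287 counts in High-VCR, 12997219 to 13881840 in Low-VCR, 10645937 to 14029430 in VCR, 10305606 to 11761011 in ALL and 9425158 to 14976476 in NC. Levels are CPM, the reads of a gene per 1000000 counts of its library, after TMM scaling of the library totals, and p-values are from edgeR's quasi-likelihood test with Benjamini-Hochberg adjustment over 16534 symbols. A member was called at an adjusted p under 0.05. The RNA came from whole testis, labelled as mixed testicular cells, so fewer cells of a type and less RNA per cell cannot be told apart.

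A ribosome carries a copy of nearly every ribosomal protein, and these genes are among the most highly transcribed in most cells. In the mouse a few of them lie on the X chromosome, which is silenced in spermatocytes during meiosis. Autosomal copies that arose by retrotransposition, such as Rpl10l and Rpl39l, are transcribed mainly in the testis, and mice lacking Rpl10l or Rpl39l are known to have defective sperm formation. RPL10 lies near the tRNA sites of the large subunit and is among the last proteins to join it, and RPL39 lines the tunnel through which the new protein leaves.

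The coding sequences of both pairs are shown because the results turn on telling the copies of a pair apart. They are given from GENCODE M21 (GRCm38), 5′ to 3′, with the bases that differ between the copies of a pair in capitals. For Rpl10l (chromosome 12) and Rpl10 (chromosome X), the first 240 of 642 coding bases are shown.
Rpl10l: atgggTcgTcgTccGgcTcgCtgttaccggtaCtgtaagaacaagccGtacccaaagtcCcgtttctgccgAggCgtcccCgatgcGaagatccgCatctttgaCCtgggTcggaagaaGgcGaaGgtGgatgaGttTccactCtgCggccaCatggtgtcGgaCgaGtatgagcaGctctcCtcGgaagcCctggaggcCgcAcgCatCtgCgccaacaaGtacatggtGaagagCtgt
Rpl10: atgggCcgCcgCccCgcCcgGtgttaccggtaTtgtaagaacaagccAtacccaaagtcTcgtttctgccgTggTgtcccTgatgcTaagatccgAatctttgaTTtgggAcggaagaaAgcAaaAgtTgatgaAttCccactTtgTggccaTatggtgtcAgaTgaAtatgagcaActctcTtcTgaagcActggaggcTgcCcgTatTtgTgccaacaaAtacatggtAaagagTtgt
For Rpl39l (chromosome 16) and Rpl39 (chromosome X), all 153 coding bases before the stop codon are shown.
Rpl39l: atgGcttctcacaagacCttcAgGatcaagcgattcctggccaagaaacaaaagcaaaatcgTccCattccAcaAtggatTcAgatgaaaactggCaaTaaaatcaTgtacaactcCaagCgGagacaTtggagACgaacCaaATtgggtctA
Rpl39: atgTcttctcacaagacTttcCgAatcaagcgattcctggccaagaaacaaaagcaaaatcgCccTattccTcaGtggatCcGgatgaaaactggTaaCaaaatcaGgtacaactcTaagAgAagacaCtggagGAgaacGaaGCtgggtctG
Over the whole coding sequence Rpl10l differed from Rpl10 at 98 of 642 bases (84.7% identity), Rpl39l from Rpl39 at 23 of 153 (84.97%), and Rpl36al from Rpl36a, a pair of the same kind, at 39 of 318 (87.7%). None of these pairs shared a window of 50 bases (0 windows each), and the longest shared run of the Rpl39 pair was 38 bases.

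Rpl10l and Rpl39l fell in VCR relative to NC, and their X-linked copies Rpl10 and Rpl39 were the members with the largest log2 rises (under the Sertoli scaling described below, Rpl10 was no longer called). Rpl10l had 9.07, 38.9, 122 and 90.1 CPM in VCR, against 249, 258, 212 and 230 CPM in NC. All VCR libraries were below all NC libraries, with VCR 1 the lowest, and Rpl10l fell by 1.87 on the log2 scale (SE 0.53, adjusted p = 0.00393 in edgeR). Rpl10 had 198, 159, 85.6 and 90.4 CPM in VCR, against 0.122, 21.4, 21.6 and 21.4 CPM in NC. The groups did not overlap, and Rpl10 rose by 3.04 (SE 0.64, adjusted p = 0.000372 in edgeR). NC 1 held 1 Rpl10 count where the other NC libraries averaged 236.0, and without NC 1 the log2 change was 2.63 (adjusted p = 3.44e-06 in edgeR).

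Rpl39l had 3.58, 11.1, 31.8 and 30 CPM in VCR, against 65.1, 55.6, 48.7 and 68.9 CPM in NC. VCR 1 and VCR 2 were again the lowest, no VCR library reached an NC library, and Rpl39l fell by 1.64 (SE 0.46, adjusted p = 0.00383 in edgeR). Rpl39 had 122, 78.8, 47.3 and 58.4 CPM in VCR, against 6.82, 8.83, 7.85 and 12.8 CPM in NC. The VCR libraries with the least Rpl39l held the most Rpl39, and Rpl39 rose by 3.07 (SE 0.31, adjusted p = 1.77e-07 in edgeR). CPM are shares of the RNA in a library, so the fits were repeated with libraries scaled to the summed counts of 14 Sertoli-cell markers (Sertoli scaling), the somatic cells that line the tubules. That scaling takes the Sertoli marker RNA as unchanged between testes, which was not tested. The log2 changes were then 0.87 for Rpl39 and 0.85 for Rpl10, with Rpl10 no longer called (adjusted p = 0.183 in edgeR), and -3.60 for Rpl39l and -3.83 for Rpl10l.

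In engrafted mice given vincristine Rpl10l and Rpl39l were again at lower levels, and Rpl10 and Rpl39 at higher levels, than in ALL. Rpl10l had 35.5, 157, 61.7 and 56.3 CPM in High-VCR and 114.9, 111.4, 108.7 and 116.1 CPM in Low-VCR, against 223, 224, 238 and 208 CPM in ALL. The Low-VCR libraries lay close together, and High-VCR 2 stood above the other High-VCR libraries. Rpl10l fell by 1.52 in High-VCR relative to ALL (SE 0.52, adjusted p = 0.0148 in edgeR). Its log2 difference in Low-VCR relative to ALL was -0.98 (SE 0.51, adjusted p = 0.112 in edgeR), which did not pass although the groups did not overlap. Other fits called it, with an adjusted p of 4.9e-06 when only ALL and Low-VCR were fitted in edgeR and 0.0326 in DESeq2. In DESeq2 the scaling and the log2 difference (-1.16) also changed, and why the calls differed was not tested.

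Rpl39l had 11.8, 42, 26.6 and 18.9 CPM in High-VCR and 40.4, 40.6, 31.2 and 33.8 CPM in Low-VCR, against 76.4, 76, 72.5 and 69.9 CPM in ALL. High-VCR 2 was again the highest of its group, and all ALL libraries were above all drug-treated ones. Rpl39l fell by 1.57 in High-VCR relative to ALL (SE 0.46, adjusted p = 0.00558 in edgeR). In Low-VCR relative to ALL the log2 difference was -1.01 (SE 0.45, adjusted p = 0.0675 in edgeR, and 0.0151 in DESeq2).

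Rpl10 had 126, 71.4, 122 and 154 CPM in High-VCR and 91.4, 66.1, 119 and 87.7 CPM in Low-VCR, against 30, 35.3, 21.4 and 27 CPM in ALL. No treated library overlapped with ALL. Rpl10 rose by 2.06 in High-VCR (SE 0.61, adjusted p = 0.00647 in edgeR) and by 1.68 in Low-VCR (SE 0.61, adjusted p = 0.0289 in edgeR), each relative to ALL. The call in Low-VCR was lost without ALL 1, ALL 3, ALL 4 or Low-VCR 3, one at a time (highest adjusted p 0.0745 in edgeR). It was also lost with the replicate number as a block (adjusted p = 0.0517 in edgeR) and in limma voom (adjusted p = 0.0647). Rpl39 had 63.3, 29.2, 59.6 and 64.9 CPM in High-VCR and 41.3, 53.1, 43 and 39.6 CPM in Low-VCR, against 12.5, 15.1, 13.8 and 9.38 CPM in ALL. The library with the most Rpl39l, High-VCR 2, held the least Rpl39 of its group. Rpl39 rose by 2.09 in High-VCR (SE 0.30, adjusted p = 8.56e-06 in edgeR) and by 1.80 in Low-VCR (SE 0.30, adjusted p = 7.57e-05 in edgeR). Under Sertoli scaling the log2 differences in engrafted mice were -0.18 for Rpl10 and -0.14 for Rpl39 in High-VCR and -0.22 and -0.10 in Low-VCR. None of these was called (adjusted p 0.51 to 0.783 in edgeR), so the rises were lost rather than reversed. That scaling moved the median of all symbols to -1.99 in High-VCR and -1.82 in Low-VCR. Rpl39 stood 1.85 and 1.72 above that median (1.93 and 1.72 with TMM), and Rpl10 1.81 and 1.60 (1.89 and 1.60 with TMM).

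**Figure D1:**
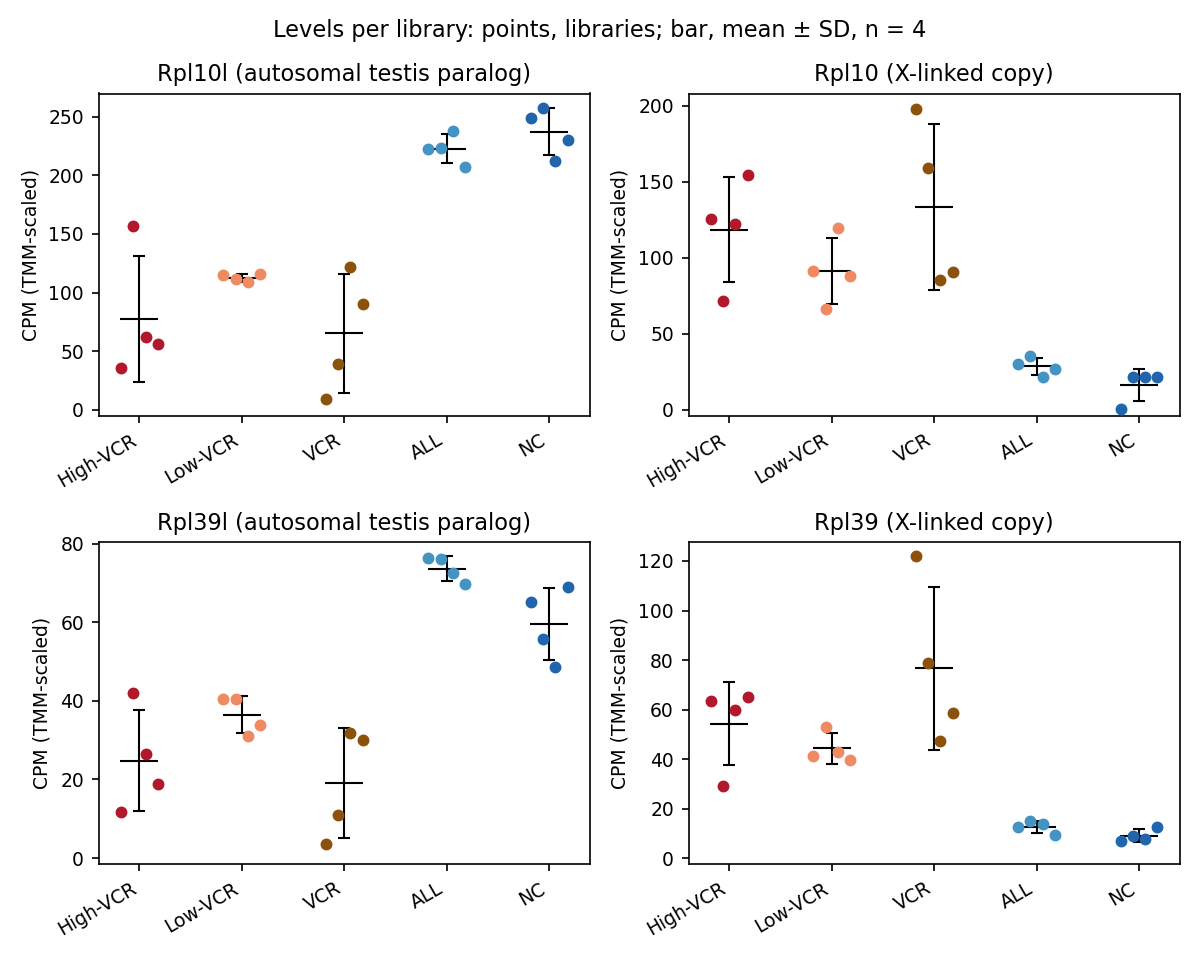
Levels of Rpl10l, Rpl10, Rpl39l and Rpl39 in CPM after TMM scaling (y axis) in each of the 5 groups (x axis); points are libraries, the horizontal bar is the mean and the error bar the SD of 4 libraries. Rpl10l averaged 65.0 ± 50.6 CPM in VCR and 237 ± 20.1 CPM in NC, and Rpl39 averaged 76.6 ± 32.9 CPM in VCR and 9.06 ± 2.59 CPM in NC.

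Per kilobase of transcript, to set genes of unlike length side by side, the mean of Rpl10l stood above that of Rpl10 in both saline groups and below it in VCR. VCR 3 kept more Rpl10l than Rpl10, with 58.8% of the pair's counts. How reads that match several places were counted is not given, which limits such comparisons between genes. Rpl10l was at 75.8 ± 52.7 CPM per kilobase in High-VCR, 110 ± 3.29 in Low-VCR, 63.6 ± 49.5 in VCR, 218 ± 12.0 in ALL and 232 ± 19.7 in NC (SD, n = 4 each). Rpl10 was at 138 ± 40.3 CPM per kilobase in High-VCR, 107 ± 25.5 in Low-VCR, 156 ± 64.1 in VCR, 33.3 ± 6.81 in ALL and 18.9 ± 12.5 in NC. In Low-VCR the copies stood within each other's spread. Rpl39l was at 30.8 ± 16.1 CPM per kilobase in High-VCR, 45.3 ± 5.87 in Low-VCR, 23.7 ± 17.3 in VCR, 91.5 ± 3.85 in ALL and 74.0 ± 11.4 in NC. Rpl39 was at 88.6 ± 27.5 CPM per kilobase in High-VCR, 72.3 ± 9.93 in Low-VCR, 125 ± 53.8 in VCR, 20.7 ± 3.99 in ALL and 14.8 ± 4.24 in NC.

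The share of a pair's counts that fell on the autosomal copy does not depend on library scaling. Rpl10l made up 22.0, 68.7, 33.6 and 26.7% of the Rpl10l and Rpl10 counts in High-VCR, 55.7, 62.8, 47.7 and 57.0% in Low-VCR, 4.37, 19.6, 58.8 and 49.9% in VCR, 88.1, 86.4, 91.7 and 88.5% in ALL, and 99.95, 92.3, 90.8 and 91.5% in NC. Rpl39l made up 15.7, 59.0, 30.8 and 22.6% of its pair in High-VCR, 49.4, 43.3, 42.0 and 46.1% in Low-VCR, 2.85, 12.3, 40.2 and 33.9% in VCR, 85.9, 83.4, 84.0 and 88.2% in ALL, and 90.5, 86.3, 86.1 and 84.4% in NC. For both pairs every saline library had a higher share than every vincristine library, and the spread was widest in VCR and High-VCR.

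The mean log2 ratio of Rpl10l to Rpl10 was lower by 6.67 in VCR than in NC (SE 2.08), by 3.77 in High-VCR than in ALL (SE 0.68) and by 2.65 in Low-VCR than in ALL (SE 0.25). Without NC 1 the first of these differences was -4.93. For Rpl39l to Rpl39 the differences were -5.09 in VCR relative to NC (SE 1.05), -3.76 in High-VCR relative to ALL (SE 0.64) and -2.83 in Low-VCR relative to ALL (SE 0.16). Each of these 6 gave p = 0.0286 in a two-sided exact permutation test, the smallest that 4 against 4 libraries allow, and 0.0571 after Benjamini-Hochberg adjustment over the 14 ratio tests, which misses 0.05. The ratio of Rpl39l to Rpl39 was 2.08 higher in Low-VCR than in VCR (SE 1.03, exact permutation p = 0.0286, adjusted 0.0571), and that of Rpl10l to Rpl10 was 1.83 higher (exact permutation p = 0.2, adjusted 0.255). ALL and NC differed by -0.18 for the Rpl39 pair (exact permutation p = 0.429, adjusted 0.462) and by -2.19 for the Rpl10 pair (exact permutation p = 0.0857, adjusted 0.15), where NC 1 lies far from the other NC libraries.

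The summed level of each pair was also formed. Rpl10l and Rpl10 together had 196 ± 29.4 CPM in High-VCR, 204 ± 20.7 in Low-VCR, 198 ± 12.7 in VCR, 251 ± 11.6 in ALL and 253 ± 18.7 in NC. Rpl39l and Rpl39 together had 79.1 ± 7.08 CPM in High-VCR, 80.8 ± 9.399 in Low-VCR, 95.7 ± 20.4 in VCR, 86.4 ± 5.16 in ALL and 68.6 ± 10.7 in NC. These sums were formed after the values had been seen, and no test was made of them.

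Markers of spermatocytes and round spermatids were lower in the vincristine groups, as the shares were. The 10 spermatogonium markers, also of germ cells, went the other way. They summed to 284 to 473 CPM in High-VCR, 300 to 333 in Low-VCR, 344 to 486 in VCR, 138 to 158 in ALL and 148 to 155 in NC. Within Low-VCR the round spermatid sum was highest in Low-VCR 3 (1750 CPM), which had the lowest Rpl10l share (47.7%). The 12 markers of pachytene to diplotene spermatocytes, the meiotic stages in which Rpl10l is known to be transcribed, summed to 2410, 8620, 4550 and 3430 CPM in High-VCR, 5970, 7050, 5240 and 7170 CPM in Low-VCR, 291, 2080, 6600 and 4430 CPM in VCR, 11600 to 12300 CPM in ALL and 11700 to 12300 CPM in NC. Within VCR and within High-VCR the libraries with the lowest marker sum had the lowest share of both paralogs. Of these 12 markers, 10 (83.3%) fell in VCR relative to NC (median log2 change -1.77). In High-VCR relative to ALL 7 (58.3%) fell (-1.30), and over all symbols 35.6% and 30.5% fell in these comparisons. In Low-VCR relative to ALL 0 were called (-0.89), where 15.2% of all symbols fell, although all Low-VCR sums lay below all ALL sums. That fit took its error from all 5 groups, so 0 calls does not mean no change. None of the 12 was at 0 in all libraries of a group. The 12 round spermatid markers summed to 464 to 794 CPM in High-VCR, 835 to 1750 CPM in Low-VCR, 24.5 to 591 CPM in VCR, 2830 to 3140 CPM in ALL and 2830 to 3010 CPM in NC, and the 14 Sertoli-cell markers to 6580 to 11000 CPM in High-VCR, 6320 to 8180 CPM in Low-VCR, 8260 to 12600 CPM in VCR, 1970 to 2050 CPM in ALL and 2110 to 2410 CPM in NC. The part of these cell types in the results for the ribosomal protein genes was not tested.

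**Figure D2:**
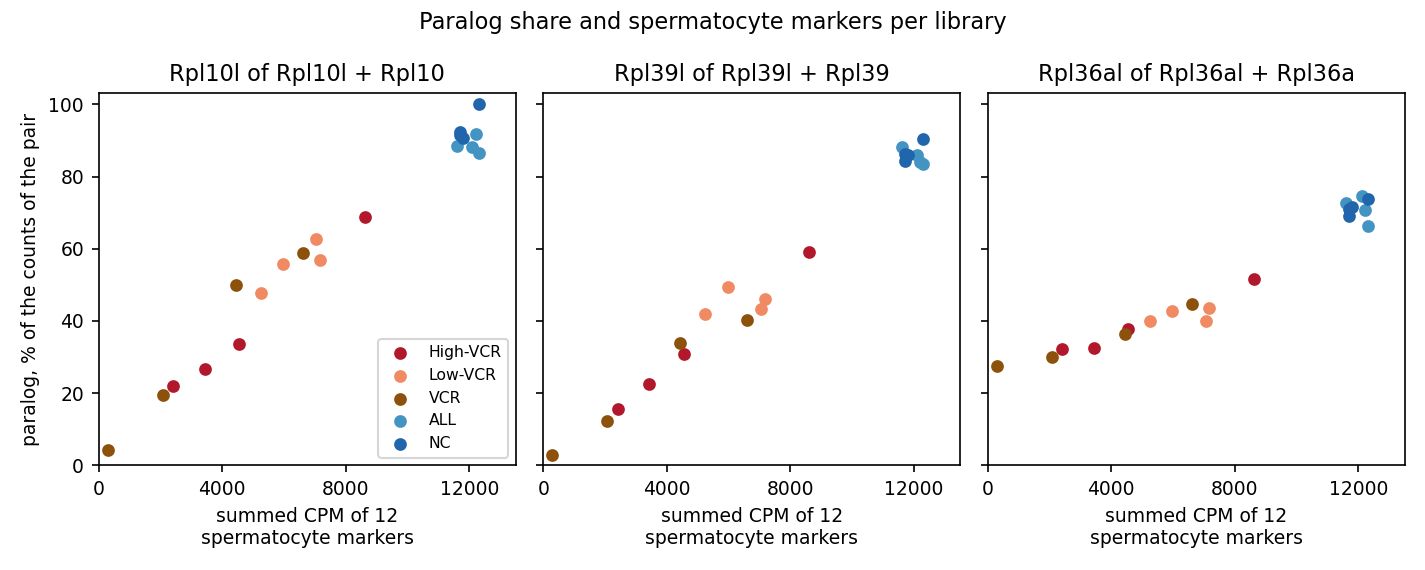
Percent of a pair's counts on the autosomal paralog (y axis) against the summed CPM of 12 spermatocyte markers (x axis), for the Rpl10l, Rpl39l and Rpl36al pairs; each point is a library, coloured by group. The ALL and NC libraries sit together at the upper right, and VCR 1, with a marker sum of 291 CPM, has the lowest share of each paralog (4.37% for Rpl10l, 2.85% for Rpl39l and 27.5% for Rpl36al).

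All 4 X-linked members were among those with the largest rises with vincristine. Rpl39 ranked 1st and Rpl10 2nd of the 85 members by log2 change in VCR relative to NC and in High-VCR and Low-VCR relative to ALL. Rpl36a, a protein of the large subunit, had 125, 89.8, 54.5 and 69.9 CPM in VCR, against 13.6, 16.1, 14.4 and 19.1 CPM in NC. No VCR library came near NC, and Rpl36a rose by 2.42 (SE 0.26, adjusted p = 2.75e-07 in edgeR). It rose by 1.90 in High-VCR (SE 0.25, adjusted p = 3.63e-06 in edgeR) and by 1.61 in Low-VCR (SE 0.25, adjusted p = 4.1e-05 in edgeR), each relative to ALL. Rps4x, of the small subunit, had 460, 357, 235 and 300 CPM in VCR, against 108.2, 110.4, 105.5 and 110.2 CPM in NC. Its NC libraries lay within a few CPM of each other, and Rps4x rose by 1.64 in VCR relative to NC (SE 0.18, adjusted p = 4.78e-07 in edgeR), by 1.43 in High-VCR relative to ALL (SE 0.18, adjusted p = 2.35e-06 in edgeR) and by 1.03 in Low-VCR relative to ALL (SE 0.18, adjusted p = 0.000138 in edgeR). Under Sertoli scaling Rps4x was at -0.55, -0.77 and -0.88 in these comparisons, and Rpl36a at 0.22, -0.33 and -0.29.

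The X-linked members had a median log2 change of 2.73 in VCR relative to NC, 1.98 in High-VCR relative to ALL and 1.65 in Low-VCR relative to ALL. Over all 726 X-linked symbols tested the median was 0.96, 0.98 and 0.84 in the same comparisons. Of these symbols 52.2%, 53.9% and 49.9% were called higher, and 31.4%, 28.8% and 3.31% lower. Of the autosomal symbols 42.2%, 42.5% and 36.3% were called higher, and 35.2%, 29.9% and 15.7% lower. Over 15343 autosomal symbols it was 0.10, 0.16 and 0.07. The 72 autosomal housekeeping members, leaving out paralogs and Rps19bp1, had medians of 0.54, 0.27 and 0.23, so 4 X-linked members are set here against a much longer list.

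Rpl36al, the autosomal copy of Rpl36a, was not called with TMM scaling in any comparison of vincristine with its saline group. Under Sertoli scaling it fell in all of them, by 2.26 in High-VCR and 2.06 in Low-VCR relative to ALL and by 2.02 in VCR relative to NC (highest adjusted p 1.68e-07 in edgeR). It had 47.5, 38.3, 43.9 and 40.1 CPM in VCR, against 38.6, 39.3, 36.2 and 43.1 CPM in NC. The groups overlapped, and its log2 difference was 0.11 (SE 0.10, adjusted p = 0.313 in edgeR). In High-VCR it had 40.5, 44.1, 35.2 and 38.4 CPM and in Low-VCR 38.2, 42.6, 34.7 and 38.0 CPM, against 44.7, 45.2, 41.5 and 40.3 CPM in ALL. Neither difference passed (-0.12, adjusted p = 0.29, and -0.16, adjusted p = 0.167, both in edgeR). Its share of the pair was 32.2 to 51.6% in High-VCR, 39.9 to 43.5% in Low-VCR, 27.5 to 44.6% in VCR, 66.2 to 74.6% in ALL and 69.2 to 73.9% in NC while the level of Rpl36al itself was not called with TMM scaling.

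**Figure D3:**
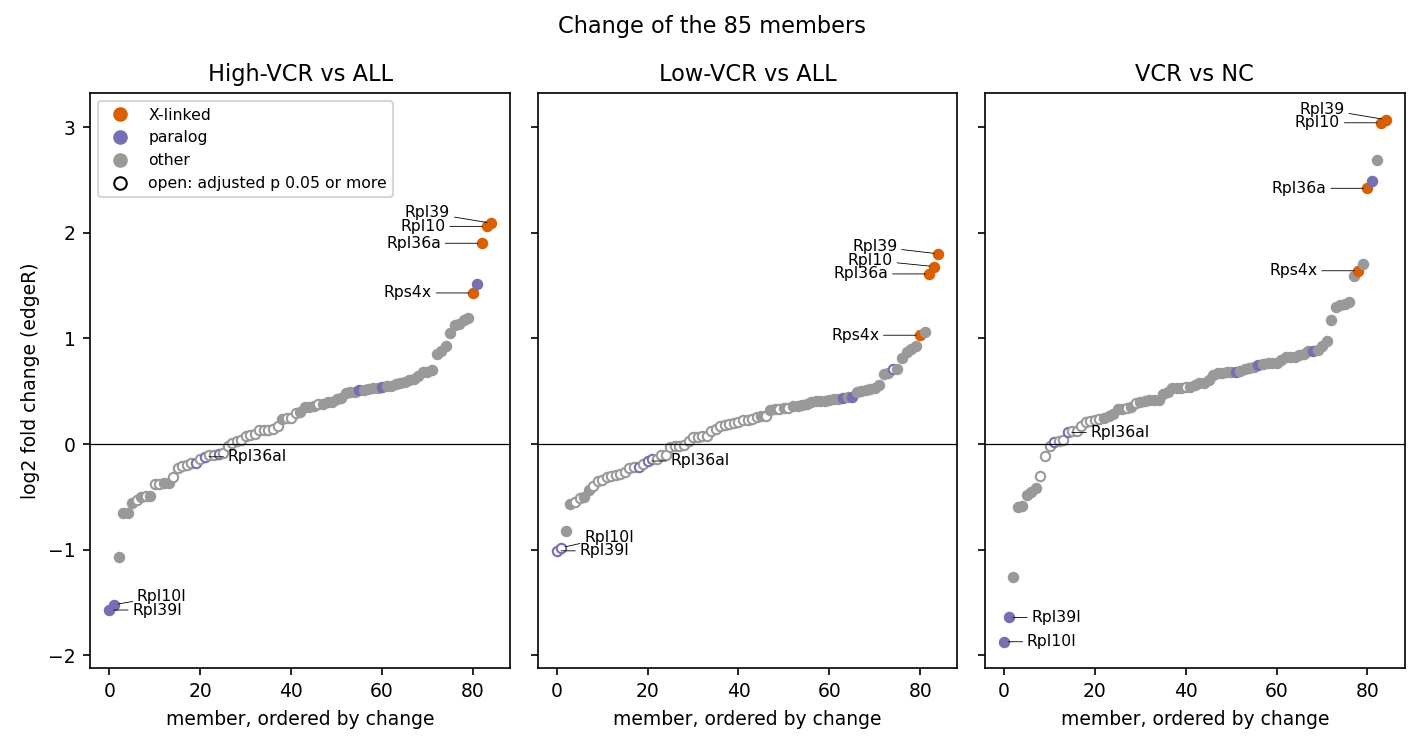
Log2 fold change (y axis) of the 85 members, ordered by change (x axis), in High-VCR relative to ALL, Low-VCR relative to ALL and VCR relative to NC; orange points are X-linked members, purple points paralogs, grey points the others, and open points had an adjusted p of 0.05 or more. The X-linked members lie towards the right end and Rpl10l and Rpl39l at the left end; under Sertoli scaling the medians of all members are -1.84, -1.67 and -1.60.

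The remaining paralogs gave no common direction. Rpl22l1, a paralog of the large-subunit gene Rpl22, had 50.1, 27.6, 30.7 and 38.3 CPM in VCR, against 37, 33.5, 36.3 and 37.9 CPM in NC. It overlapped with NC and its log2 difference was 0.02 (adjusted p = 0.919 in edgeR), turning to -0.09 with DESeq2 size factors. Rpl22 itself was at 37.8 ± 5.48 CPM in VCR and 22.1 ± 3.31 CPM in NC (SD, n = 4 each) and rose by 0.77 (SE 0.13, adjusted p = 5.48e-05 in edgeR). It also rose in High-VCR (0.64, adjusted p = 0.000419 in edgeR) and Low-VCR (0.56, adjusted p = 0.00205 in edgeR) relative to ALL. These rises of Rpl22 turned to -1.37, -1.55 and -1.34 under Sertoli scaling.

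Rps27l, a paralog of Rps27 known as a p53 target, had 101, 81.9, 68.1 and 83.7 CPM in VCR, against 44.6, 41.1, 41.5 and 54.6 CPM in NC. The groups did not overlap, and Rps27l rose by 0.88 (SE 0.14, adjusted p = 2.47e-05 in edgeR; -1.27 under Sertoli scaling). It rose by 0.51 in High-VCR (adjusted p = 0.00356 in edgeR) and by 0.44 in Low-VCR (adjusted p = 0.0154 in edgeR), each relative to ALL, again below 0 under Sertoli scaling. The call in High-VCR was lost with DESeq2 size factors (0.34, adjusted p = 0.0505 in edgeR) and in a fit of only those groups (0.26, adjusted p = 0.0817 in edgeR). The call in Low-VCR was lost in DESeq2 (0.26, adjusted p = 0.137), with its size factors, and without ALL 4 or Low-VCR 2. Rps27 rose by 0.68 in VCR relative to NC (SE 0.20, adjusted p = 0.00419 in edgeR; -1.48 under Sertoli scaling), and in Low-VCR relative to ALL its difference was -0.22 (adjusted p = 0.332 in edgeR). Rps27rt gave the same values as Rps27, so the counts of these genes cannot be told apart.

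Rpl3l, in the mouse a paralog of striated muscle, was barely detected. It had 45, 34, 28 and 24 counts in VCR, against 8, 3, 0 and 6 counts in NC. It rose by 2.49 (SE 0.64, adjusted p = 0.00182 in edgeR), beside 3.43, 2.58, 1.84 and 1.83 CPM in VCR, and under Sertoli scaling the call was lost (0.31, adjusted p = 0.668 in edgeR). In High-VCR it had 26, 32, 28 and 41 counts, against 5, 10, 12 and 0 counts in ALL, and rose by 1.51 (SE 0.60, adjusted p = 0.0304 in edgeR), a call lost without some libraries (highest adjusted p 0.0711 in edgeR). Its ubiquitous counterpart Rpl3 was at 486 ± 73.7 CPM in VCR and 217 ± 17.5 CPM in NC (SD, n = 4 each) and rose by 1.17 (SE 0.14, adjusted p = 8.95e-07 in edgeR; -0.99 under Sertoli scaling). Rpl7l1, a relative of Rpl7, was at 26.98 ± 1.66 CPM in VCR and 16.0 ± 0.641 CPM in NC and rose by 0.75 (SE 0.08, adjusted p = 4.13e-07 in edgeR; -1.39 under Sertoli scaling). Rpl7 rose by 0.53 (SE 0.13, adjusted p = 0.00136 in edgeR; -1.62 under Sertoli scaling).

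Across all members, 60 rose, 8 fell and 17 were not called in VCR relative to NC, where 42.1% of all symbols tested rose and 35.6% fell (77.7% in either direction); scaled to Sertoli markers, 1 rose and 80 fell. The median log2 change of the members was 0.56, against 0.10 for all symbols, and 62 members (72.9%) did not overlap between the groups, against 73.9% of all symbols. Sertoli scaling moved the median of all symbols to -2.03 and that of the members to -1.60, and the members' distance from the median of all symbols was 0.46 with TMM and 0.43 under Sertoli scaling. Of the 30 small-subunit genes 20 rose and 4 fell (median 0.57), of the 43 large-subunit genes 34 rose and 2 fell (median 0.54), and of the stalk genes 2 rose and 0 fell (median 0.73). Under Sertoli scaling the medians of these classes were -1.58, -1.61 and -1.41. The members held 2.13 ± 0.346% of all counts in VCR and 1.16 ± 0.0882% in NC (SD, n = 4 each).

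In High-VCR relative to ALL, 43 members rose and 10 fell, where 42.4% of all symbols rose and 30.5% fell (72.9% in either direction), and 57 (67.1%) did not overlap, against 69.9% of all symbols. The split was 27 and 19 with DESeq2 size factors, 57 and 4 with library size alone, 21 and 24 when only ALL and High-VCR were fitted, and 0 and 80 under Sertoli scaling. The members' median was 0.30, against 0.16 for all symbols. In the 4 other settings, in the same order, the median of all symbols was -0.01, 0.45, -0.10 and -1.99. The members' median stood 0.13 to 0.15 above it there, and 0.13 above it with TMM. In Low-VCR relative to ALL, 36 members rose and 4 fell, where 36.4% of all symbols rose and 15.2% fell (51.6% in either direction), and 51 (60.0%) did not overlap, against 64.4% of all symbols. The split was 16 and 15 with DESeq2 size factors, 51 and 0 with library size alone, 42 and 12 when only these groups were fitted, and 0 and 80 under Sertoli scaling. The median was 0.23, against 0.08 for all symbols. In the other settings, in the same order, the median of all symbols was -0.10, 0.33, 0.05 and -1.82. The members' median stood 0.15 to 0.19 above it there, and 0.16 above it with TMM. The splits thus moved with a shift of all symbols, whose called shares in those settings are not given here. With TMM scaling in engrafted mice, the share of members that rose was near the background (50.6% against 42.4% in High-VCR, 42.4% against 36.4% in Low-VCR). The share that fell was below it (11.8% against 30.5%, and 4.71% against 15.2%). Between the comparisons without shared controls, 35 of the 60 members that rose in VCR were among the 36 that rose in Low-VCR, and 41 of the 60 were among the 43 that rose in High-VCR. The same overlap was not counted over all symbols, so these counts do not set the members apart from other genes.

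**Figure D4:**
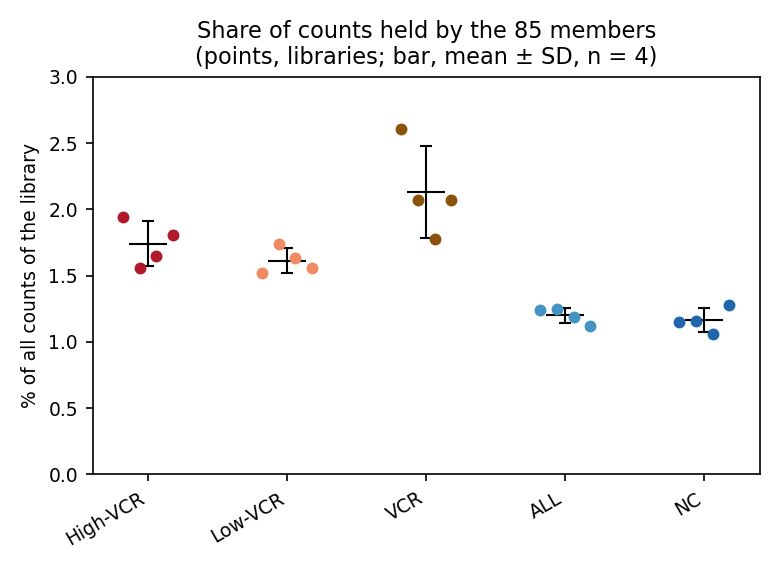
Share of all counts of a library held by the 85 members (y axis, percent, starting at 0) in the 5 groups (x axis); points are libraries, and bars are the mean and SD of 4 libraries. The means were 1.74 ± 0.167% in High-VCR, 1.61 ± 0.0973% in Low-VCR, 2.13 ± 0.346% in VCR, 1.20 ± 0.0614% in ALL and 1.16 ± 0.0882% in NC.

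The share of mitochondrially encoded genes moved with the share of the members. It was 7.32 ± 1.91% of counts in High-VCR, 6.07 ± 1.53% in Low-VCR, 8.26 ± 2.6% in VCR, 1.95 ± 0.136% in ALL and 2.23 ± 0.314% in NC (SD, n = 4 each). Leaving these genes out of the total, the members held 1.88 ± 0.216% in High-VCR, 1.72 ± 0.128% in Low-VCR, 2.33 ± 0.45% in VCR, 1.22 ± 0.064% in ALL and 1.19 ± 0.092% in NC, so the higher share in the treated groups was as large without them.

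Rps14, a small-subunit protein of the platform, had 110, 145, 121 and 81.6 CPM in VCR, against 28.5, 42.9, 0 and 0 CPM in NC. NC 3 and NC 4 were listed at 0 where NC 1 and NC 2 had 234 and 399 counts, and every ALL library held at least 595 counts. For Rps14, VCR vs NC gave a log2 change of 2.69 (SE 0.98, adjusted p = 0.0188 in edgeR). Without NC 3 and NC 4 it was 1.68 (adjusted p = 0.00145 in edgeR), and the call was lost in a fit of only NC and VCR (2.64, adjusted p = 0.13 in edgeR) and under Sertoli scaling (0.51, adjusted p = 0.632 in edgeR). Rps19, the subunit gene first tied to Diamond-Blackfan anemia in humans, had 201, 158, 115 and 141 CPM in VCR, against 53, 50.1, 41.5 and 45 CPM in NC. No library overlapped and Rps19 rose by 1.70 (SE 0.16, adjusted p = 1.15e-07 in edgeR; -0.48 and called lower under Sertoli scaling, adjusted p = 0.00812). Rps3, at the entry of the mRNA channel, had 402, 369, 268 and 302 CPM in VCR, against 116.7, 121.8, 94.4 and 112.8 CPM in NC, and rose by 1.59 (SE 0.15, adjusted p = 1.11e-07 in edgeR; -0.58 and called lower under Sertoli scaling, adjusted p = 0.00208).

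A few small-subunit genes fell. Rps20 had 241, 227, 324 and 281 CPM in VCR, against 432, 384, 360 and 438 CPM in NC, and fell by 0.59 (SE 0.15, adjusted p = 0.00173 in edgeR). It fell by 0.65 in High-VCR (SE 0.15, adjusted p = 0.000942 in edgeR) and by 0.50 in Low-VCR (SE 0.15, adjusted p = 0.0104 in edgeR), each relative to ALL, so that it was among the members with the largest falls in every drug comparison. Rps24 had 100, 101, 149 and 138 CPM in VCR, against 178, 174, 181 and 206 CPM in NC, and fell by 0.60 (SE 0.15, adjusted p = 0.00176 in edgeR). With library size alone the calls of Rps20 in VCR (-0.20) and in Low-VCR (-0.25, adjusted p = 0.124 in edgeR) and of Rps24 in VCR (-0.21) were lost. Rps18, a housekeeping protein elsewhere among the abundant ones, had 0.99, 0.38, 1.18 and 1.37 CPM in VCR, against 1.95, 2.15, 2.23 and 3.08 CPM in NC, and fell by 1.26 (SE 0.31, adjusted p = 0.00128 in edgeR). Its level in NC was 4.2 CPM per kilobase, against 948 ± 32.5 for Rplp0, so its counts are uncertain; how reads that match several places were counted is not given in the sources used here.

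Among the large-subunit genes, Rpl14 had 450, 362, 262 and 322 CPM in VCR, against 128, 127, 143 and 160 CPM in NC, and rose by 1.32 (-0.85 under Sertoli scaling). In Low-VCR relative to ALL it rose by 1.06 (SE 0.17, adjusted p = 5.11e-05 in edgeR; -0.85 under Sertoli scaling), with 237, 328, 252 and 252 CPM in Low-VCR, against 138.4, 127.9, 131.4 and 113.4 CPM in ALL. Rpl10a, part of the L1 stalk, had 379, 307, 240 and 285 CPM in VCR, against 109.3, 120.9, 117.7 and 131.3 CPM in NC, and rose by 1.34 (SE 0.15, adjusted p = 4.2e-07 in edgeR; -0.83 and called lower under Sertoli scaling, adjusted p = 6.11e-05). Rpl13 fell by 0.48 in VCR relative to NC (SE 0.19, adjusted p = 0.0314 in edgeR) and by 0.57 in Low-VCR relative to ALL (SE 0.19, adjusted p = 0.0205 in edgeR), and its difference in High-VCR relative to ALL was -0.14 (adjusted p = 0.517 in edgeR). The call of Rpl13 in Low-VCR was lost with library size alone (-0.32, adjusted p = 0.154 in edgeR) and without ALL 1, Low-VCR 1 or Low-VCR 3, one at a time (highest adjusted p 0.0661 in edgeR). Rplp0, the base of the stalk that recruits elongation factors, had the highest level per kilobase of all members in NC and was at 1045 ± 101 CPM in VCR and 1288 ± 44.2 CPM in NC (SD, n = 4 each; log2 difference -0.30, adjusted p = 0.0793 in edgeR). Rplp1 and Rplp2, the acidic stalk proteins that bind to it, rose by 0.73 (adjusted p = 4.73e-05 in edgeR) and 0.85 (adjusted p = 4.32e-05 in edgeR), and were at -1.41 and -1.33 under Sertoli scaling.

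Rpl41, the smallest ribosomal protein, fell with vincristine in engrafted mice, relative to ALL. It had 11, 13.2, 14.7 and 17.9 CPM in High-VCR and 19.7, 14.9, 19.8 and 13.1 CPM in Low-VCR, against 33.7, 35.8, 24.9 and 24.7 CPM in ALL. All ALL libraries were above the treated ones, and Rpl41 fell by 1.07 in High-VCR (SE 0.22, adjusted p = 0.000389 in edgeR) and by 0.82 in Low-VCR (SE 0.22, adjusted p = 0.00545 in edgeR). The call in Low-VCR was lost with library size alone (-0.55, adjusted p = 0.0595 in edgeR). In VCR it had 19.7, 13.6, 14.6 and 12.9 CPM, against 14.9, 18.6, 9.02 and 16.7 CPM in NC, where the groups overlapped. The NC libraries also overlapped with those of High-VCR and Low-VCR, and all ALL libraries were above all NC libraries. Rps29, a zinc-binding protein of the small subunit, fell by 0.65 in High-VCR relative to ALL (SE 0.26, adjusted p = 0.0354 in edgeR). It had 130.1, 116.4, 204.7 and 203.9 CPM in High-VCR, against 282, 278, 223 and 243 CPM in ALL, and 131, 121, 71.2 and 206 CPM in NC. The call of Rps29 was lost with library size alone (-0.35, adjusted p = 0.254 in edgeR) and without ALL 1, ALL 2, High-VCR 1 or High-VCR 2, one at a time (highest adjusted p 0.101 in edgeR). Rpl37, also zinc-binding, fell by 0.43 in Low-VCR relative to ALL (SE 0.17, adjusted p = 0.0421 in edgeR). That call was lost with library size alone (-0.17, adjusted p = 0.434), with upper-quartile scaling, without a filter, with the replicate number as a block (-0.42, adjusted p = 0.0675) and without ALL 1, ALL 2, ALL 3, Low-VCR 1, Low-VCR 2 or Low-VCR 4, one at a time (highest adjusted p 0.122, all in edgeR).

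Engraftment without the drug called no member. In ALL relative to NC 0 of 85 members and 0.0% of all symbols were called by edgeR, with 748 symbols at an unadjusted p under 0.05, and DESeq2 called 19 symbols, of which 1 was a member, Rpl41 (1.03, adjusted p = 0.0212 in DESeq2). The members with the smallest p were Rpl41 (log2 difference 1.01, SE 0.22, adjusted p = 0.437 in edgeR), Rps29 (0.95, SE 0.27, adjusted p = 0.717) and Rps27 (0.68, SE 0.20, adjusted p = 0.725). Rpl10l, Rpl39l, Rpl10 and Rpl39 differed by -0.09, 0.31, 0.81 and 0.48, with an adjusted p of 1 each in edgeR.

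Members with short transcripts stood apart in that comparison. The 11 members whose transcript was under 500 bases, a limit set after the values had been seen, had a median log2 difference of 0.58 in ALL relative to NC, against 0.02 for the other 74. Over the symbols that are no members the median was 0.17 for the 104 with a transcript that short and -0.02 for 15709 longer ones. The short members summed to 1190 to 1380 CPM in ALL and 761 to 1240 CPM in NC, with NC 3 and NC 4 at opposite ends for genes such as Rps29. In High-VCR and Low-VCR relative to ALL the medians of the short members were -0.18 and -0.22, against 0.36 and 0.27 for the other members. Symbols outside the members split alike there, with -0.26 and -0.21 for short ones, against 0.19 and 0.10 for longer ones. In VCR relative to NC the medians were 0.68 and 0.54 for short and other members, and 0.23 and 0.12 for short and longer symbols outside them. The library numbers in the labels form one run for VCR and NC and other runs for the engrafted groups, so engraftment and the numbering of the libraries cannot be told apart.

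**Figure D5:**
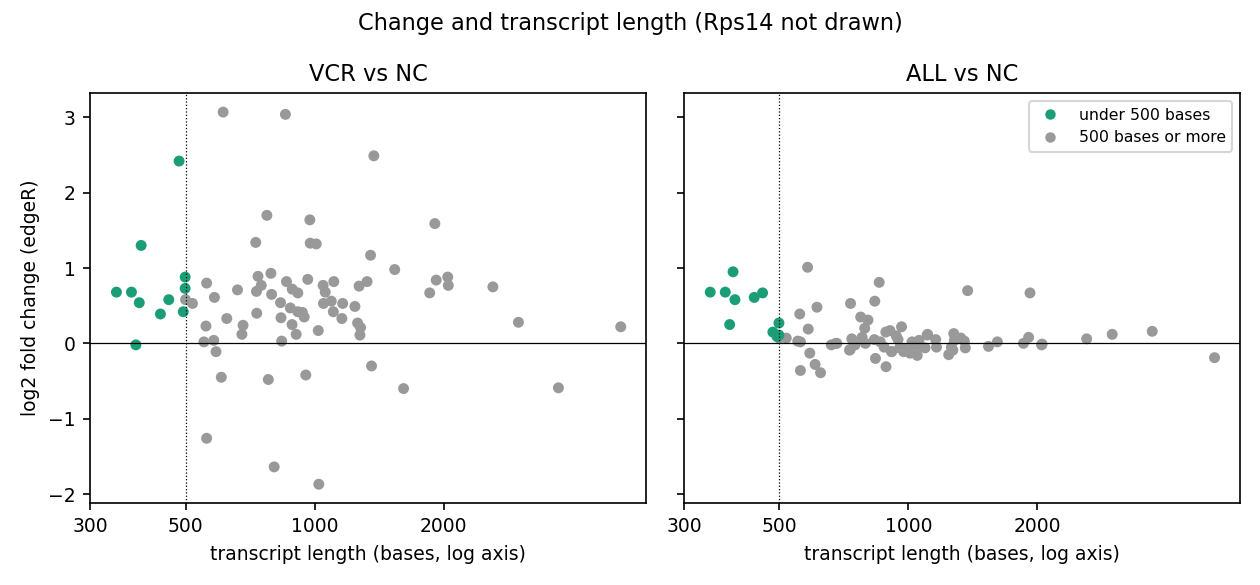
Log2 fold change (y axis) of the members against transcript length in bases (x axis, log scale) for VCR relative to NC and ALL relative to NC; green points are the 11 members under 500 bases (dotted line), grey points the others, and Rps14 is not drawn. In ALL relative to NC the green points lie above 0, with a median of 0.58, while the grey points have a median of 0.02; none of the differences in that panel was called.

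Between the infiltration groups no member was called. In High-VCR relative to Low-VCR edgeR called 0 members, where 7.81% of all symbols were called (3.13% higher and 4.69% lower), and DESeq2 called Rps19bp1 alone (adjusted p = 0.043 in DESeq2). Rps19bp1 had 16, 17.4, 17.6 and 16.1 CPM in High-VCR, against 9.8, 13.6, 9.18 and 14.3 CPM in Low-VCR (log2 difference 0.52, SE 0.18, adjusted p = 0.0766 in edgeR). The groups did not overlap for Rps19bp1. Rpl10l and Rpl39l differed by -0.54 and -0.56 and Rpl10 and Rpl39 by 0.38 and 0.29, with adjusted p-values of 0.436 to 0.694 in edgeR. Rpl9 (0.30, adjusted p = 0.123) and Rps2 (0.32, adjusted p = 0.141) had the next smallest p in edgeR.

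With vincristine in all mice, 17 members were lower and 0 higher in Low-VCR than in VCR, where 30.2% of all symbols were called (13.6% lower and 16.7% higher). The count moved with the settings, being 5 without a filter on low counts, 6 with the replicate number as a block, 37 in DESeq2 and 0 in a fit of those groups alone or under Sertoli scaling. Leaving out a library gave 4 to 36. Rps3 (-0.61, SE 0.15, adjusted p = 0.00918), Rps4x (-0.71, SE 0.18, adjusted p = 0.00978), Rpl10a (-0.56, SE 0.15, adjusted p = 0.0112) and Rpl9 (-0.42, SE 0.12, adjusted p = 0.0171) had the smallest p in edgeR. Rpl39 was lower by 0.79 on the log2 scale (SE 0.28, adjusted p = 0.0431 in edgeR; -0.48 without VCR 1, adjusted p = 0.199), and Rpl39l, Rpl10l and Rpl10 were not called (0.93, 0.79 and -0.55, with adjusted p 0.122, 0.236 and 0.478 in edgeR). In High-VCR relative to VCR 0 members were called, where 0.00605% of symbols were, and members with a small p were Rpl27 (-0.33, adjusted p = 0.49) and Rps12 (-0.29, adjusted p = 0.545) in edgeR. The log2 differences of Rpl10l, Rpl39l, Rpl10 and Rpl39 were 0.25, 0.37, -0.17 and -0.50 (adjusted p 0.691 to 0.946 in edgeR).

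Whether members responded to the drug differently by group was tested as the difference between log2 changes. For Low-VCR relative to ALL minus VCR relative to NC, 0 members were higher and 2 lower, where 5.07% of symbols were called (3.81% higher and 1.26% lower). They were Rps21 (-1.06, SE 0.28, adjusted p = 0.0425 in edgeR) and Rps19 (-0.89, SE 0.23, adjusted p = 0.0415 in edgeR). Rps21 had 128, 118, 127 and 97.2 CPM in Low-VCR, against 103.3, 112.96, 98.04 and 85.2 CPM in ALL, and 216, 159, 140 and 140 CPM in VCR, against 61.5, 72.2, 45.8 and 87.1 CPM in NC. Rps19 had 108, 122, 99 and 93.4 CPM in Low-VCR, against 56.3, 64.6, 66.6 and 53.9 CPM in ALL. Both calls were lost with the replicate number as a block (adjusted p = 0.0788 for Rps21 and 0.0721 for Rps19 in edgeR), under Sertoli scaling (0.116 and 0.141) and in most fits without 1 library (highest adjusted p 0.0846 and 0.0837 in edgeR), and leaving out a library gave 0 to 13 members. Rpl10l, Rpl39l, Rpl10 and Rpl39 gave 0.88, 0.62, -1.36 and -1.27 (adjusted p 0.0728 to 0.55 in edgeR), and for High-VCR relative to ALL minus VCR relative to NC 0 members were called, where 0.00605% of symbols were. There the smallest p belonged to Rpl41 (-1.11), Rpl37 (-0.83) and Rpl15 (-1.08), each with an adjusted p of 0.97 in edgeR.

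Genes of translation outside the ribosome, and of its assembly, went both ways with vincristine. Over all symbols tested, 42.1% rose and 35.6% fell in VCR relative to NC. Relative to ALL, 42.4% rose and 30.5% fell in High-VCR, and 36.4% rose and 15.2% fell in Low-VCR. The counts of all lists from here on stand against these shares. Of 31 translation initiation factors 4 rose and 20 fell in VCR relative to NC (median log2 change -0.44), 4 rose and 15 fell in High-VCR relative to ALL (-0.31), and 3 rose and 9 fell in Low-VCR relative to ALL (-0.20). The X-linked Eif2s3x, a subunit of the factor that brings the initiator tRNA, rose by 1.55 in VCR relative to NC (SE 0.17, adjusted p = 3e-07 in edgeR), and Eif4a1, an RNA helicase, by 1.35 (SE 0.17, adjusted p = 1.44e-06 in edgeR). Of 11 elongation and termination factors 2 rose and 6 fell in VCR (median -0.61), and the 2 that rose were Gspt2, a release factor gene (1.63, SE 0.16, adjusted p = 1.29e-07 in edgeR), and Eef1b2 (1.16, SE 0.15, adjusted p = 3.04e-06 in edgeR). Of 54 genes of ribosome assembly and ribosomal RNA synthesis 26 rose and 12 fell (median 0.19, and -1.94 under Sertoli scaling). Among them Efl1, which helps to release eIF6 from the large subunit, fell by 2.10 (SE 0.21, adjusted p = 1.65e-07 in edgeR), and Ubtf, a factor of RNA polymerase I, rose by 1.82 (SE 0.19, adjusted p = 2.77e-07 in edgeR).

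Ribosomal proteins that the symbol rule leaves out were Rack1, a small-subunit scaffold that rose by 1.37 in VCR relative to NC (SE 0.15, adjusted p = 4.62e-07 in edgeR), and Rpsa, which rose by 0.43 (SE 0.11, adjusted p = 0.00209 in edgeR). Of the 4 such genes 3 rose (median 0.37, and -1.78 under Sertoli scaling). Of 10 other messages with a terminal oligopyrimidine tract, the 5′ element that ties translation to growth signals, 4 rose and 5 fell (median -0.43). Vim, an intermediate filament gene of somatic cells, rose by 2.63 (SE 0.22, adjusted p = 3.81e-08 in edgeR) and Pabpc4, a poly(A)-binding protein gene, by 2.07 (SE 0.17, adjusted p = 3.83e-08 in edgeR). Of 78 mitochondrial ribosomal protein genes 42 rose and 17 fell (median 0.37, and -1.77 under Sertoli scaling), and those with the lowest adjusted p were Mrps24 (1.54, SE 0.17, adjusted p = 4.74e-07 in edgeR) and Mrps26 (1.53, SE 0.17, adjusted p = 5.3e-07 in edgeR).

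Other autosomal retrocopies of X-linked genes were set beside Rpl10l and Rpl39l. Of 7 such genes 0 rose and 6 (85.7%) fell in VCR relative to NC (median log2 change -1.82). Relative to ALL, 5 (71.4%) fell in High-VCR (-1.33) and 2 (28.6%) in Low-VCR (-0.88). Over all symbols 35.6%, 30.5% and 15.2% fell in these comparisons. Utp14b fell by 1.82 (SE 0.30, adjusted p = 3.86e-05 in edgeR), and Pgk2, the glycolytic enzyme of meiotic and later germ cells and one of the spermatocyte markers, by 2.28 (SE 0.56, adjusted p = 0.00127 in edgeR). Of their 7 X-linked parents 4 rose and 2 fell in VCR (median 1.09, and -1.10 under Sertoli scaling). Pdha1 rose by 1.95 (SE 0.20, adjusted p = 2.32e-07 in edgeR) and Pgk1, the somatic counterpart of Pgk2, by 1.92 (SE 0.20, adjusted p = 2.9e-07 in edgeR).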

How the data were processed

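The deposited table holds whole-number counts per gene symbol for 20 libraries of total RNA from snap-frozen mouse testis. Per the labels' protocols, RNA was extracted with TRIzol, messenger RNA was enriched on oligo-dT beads, and libraries were made with a directional kit. Per the submitters' processing notes the authors used DESeq2 1.36.0 and, with GRCm39, the programs Trimmomatic 0.39, STAR 2.7.10b and Subread 2.0.3 (featureCounts); the strand setting and the treatment of reads that match several places are not given in the sources used here. Without a stated strand setting, whether overlapping antisense genes were separated is unknown.

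From these counts, symbols were filtered with filterByExpr (minimum count 10; 16534 of 22066 kept, with all 85 members among them), scaled by TMM and fitted with 1 mean per group and 15 residual degrees of freedom in edgeR 4.0.16 (R 4.3.3), with adjusted p under 0.05 and no fold threshold. DESeq2 1.42.0 and limma 3.58.1 served as alternatives. The procedure was also run on simulated data, but the settings and outcome are not given here, so no conclusion is drawn from that run. Ratios of paralog to housekeeping copy were log2((count + 0.5)/(count + 0.5)) per library, compared by exact two-sided permutation in SciPy 1.17.1 (Python 3.11.15), and figures were drawn with matplotlib 3.10.9. Transcript lengths and coding sequences are from GENCODE M21 (GRCm38), and chromosomes from a RefSeq table of GRCm38; no coordinates are given, since the counts were made on GRCm39.

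The members and all gene lists were chosen with earlier results of these data known. Cypt1 was dropped from the list of autosomal retrocopies, after its values had been seen, because the annotation puts it on the X chromosome. Genes named were Rpl10l, Rpl39l, Rpl10 and Rpl39 throughout, the other paralog pairs, the 5 called members with the largest rise and fall in each comparison of vincristine with its saline group, the members with the smallest p elsewhere (4 called, or 3 if none was), from each other list the 2 called genes of lowest adjusted p, and members at 0 in a library whose group averaged 100 counts or more in the others. One item that the rule selects is not reported here. Named outside this rule, after their values were seen, were Rps3, Rps19, Rpl10a, the stalk genes and Rps18's level per kilobase. Intervals and floors are not given for single genes; depth of 9425158 to 16357287 counts per library limits the members with few counts, such as Rpl3l and Rps18.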

Additional observations from a re-analysis of the deposited data

Results flagged for a closer look

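In groups of 4 libraries, 8 of 190 groups of values held a library far from the others by Dixon's test at 95%, where chance gives about 1 in 20. Rpl10 was at 0.122 CPM in NC 1 and at 21.4 to 21.6 CPM in the other NC libraries, and the log2 ratio of Rpl10l to Rpl10 was 10.4 in NC 1 and 3.29 to 3.58 in the others. High-VCR 2 stood below its group for Rpl39 (29.2 CPM, others 59.6 to 64.9), Rpl22 (28.8 CPM, others 35.6 to 36.0) and Rps14 (63.3 CPM, others 94.6 to 100). Rpl7 was at 317 CPM in NC 4 (others 284 to 289), Rpl14 at 328 CPM in Low-VCR 2 (others 237 to 252) and Rpl9 at 183 CPM in VCR 1 (others 142 to 147).

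Low-VCR relative to ALL differed from VCR relative to NC, by the test of that difference, for Rps21 (-1.06, adjusted p = 0.0425 in edgeR) and Rps19 (-0.89, adjusted p = 0.0415 in edgeR). Both calls were lost with the replicate number as a block (0.0788 and 0.0721 in edgeR) and in most fits without 1 library, and High-VCR relative to ALL minus VCR relative to NC called 0 members.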

How the results depend on the processing

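The libraries of VCR and High-VCR differed most among themselves in the paralog shares, which widens the error of results that rest on them. With fewer than 10 counts, as for Rpl3l in NC, depth limits the value. The replicate numbers did not pair the libraries: the correlation of same-numbered libraries' deviations ran from -0.384 to 0.526, with 4 of 28 over 0.1. With the replicate number as a block, 67 members were called in VCR relative to NC, 52 in High-VCR and 35 in Low-VCR relative to ALL, 6 in Low-VCR relative to VCR and 0 for the difference of Low-VCR relative to ALL and VCR relative to NC.

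Of 2043 alternatives for 97 values of named genes, 1833 kept direction and side of the threshold, 115 lost the call, 33 gained it and 62 turned direction. The cause was not tested in any case. Sertoli scaling moved the median of all symbols to -2.03, -1.99 and -1.82 in VCR relative to NC and in High-VCR and Low-VCR relative to ALL. Under it 81, 80 and 80 members were called in these comparisons, nearly all lower, and 0 members in Low-VCR relative to VCR and in the difference of Low-VCR relative to ALL and VCR relative to NC. Fitting only the groups compared gave 45 calls in High-VCR relative to ALL (21 higher and 24 lower), 0 in Low-VCR relative to VCR, and 1 there with the treated libraries alone. DESeq2 called 1 member in ALL relative to NC, 1 in High-VCR relative to Low-VCR, 37 in Low-VCR relative to VCR and 17 in the difference named above. Low-VCR relative to VCR had 49 calls with library size alone, 46 with upper-quartile scaling and 5 without a filter, and the difference had 7 with the upper quartile and 1 without a filter. Leaving out a library gave 61 to 73 calls in VCR relative to NC, 47 to 56 in High-VCR and 27 to 37 in Low-VCR relative to ALL, 0 to 2 in High-VCR relative to Low-VCR, 4 to 36 in Low-VCR relative to VCR and 0 to 13 in the difference. Leaving out NC 3 and NC 4, or NC 1 and VCR 1, settings chosen after seeing the data, gave 63 and 59 calls in VCR relative to NC.

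Under Sertoli scaling, VCR relative to NC turned to -2.13 for Rpl22l1, -1.37 for Rpl22, -1.27 for Rps27l, -1.48 for Rps27, -2.02 for Rpl36al, -0.99 for Rpl3, -1.39 for Rpl7l1 and -1.62 for Rpl7. High-VCR relative to ALL turned to -0.18 for Rpl10, -0.14 for Rpl39, -1.55 for Rpl22, -1.67 for Rps27l, -0.33 for Rpl36a, -0.63 for Rpl3l, -1.25 for Rpl3, -1.62 for Rpl7l1, -1.77 for Rpl7 and -0.77 for Rps4x. Low-VCR relative to ALL turned to -0.22 for Rpl10, -0.10 for Rpl39, -1.34 for Rpl22, -1.45 for Rps27l and Rpl7l1, -0.29 for Rpl36a, -1.16 for Rpl3l, -1.24 for Rpl3, -1.59 for Rpl7, -0.85 for Rpl14 and -0.88 for Rps4x. In High-VCR and Low-VCR relative to ALL, Rpl10, Rpl39, Rpl36a and Rpl3l were not called under that scaling. Sertoli scaling also turned Rpl10l in ALL relative to NC (0.09), Rpl39 in High-VCR relative to Low-VCR (-0.04) and Rpl10 in High-VCR relative to VCR (0.01). It turned the list medians of ribosomal proteins outside the rule (-1.78), assembly genes (-1.94), X-linked parents (-1.10) and mitochondrial ribosomal proteins (-1.77). Library size alone turned Rpl22l1, Rps27 and Rpl36al to 0.20, 0.11 and 0.17 in High-VCR and to 0.11, 0.04 and 0.09 in Low-VCR, each relative to ALL.

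Rpl22l1 in VCR relative to NC turned to -0.09 with DESeq2 or its size factors, -0.02 without a filter or with limma voom, -0.03 in a fit of those groups and -0.15 without NC 1 and VCR 1, and Rpl36al to -0.01 with DESeq2 or its size factors. Rpl39l in the difference of High-VCR relative to ALL and VCR relative to NC turned to -0.03 with library size alone or the upper quartile. Leaving out a library gave -0.17 to 0.14 for Rpl22l1 in VCR relative to NC, -0.35 to 0.75 for Rpl10l, -0.00 to 0.74 for Rpl39l and -0.33 to 0.08 for Rpl10 in High-VCR relative to VCR, and -0.26 to 0.84 for Rpl10l and -0.31 to 0.43 for Rpl39l in the difference of High-VCR relative to ALL and VCR relative to NC.

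With the sum of all housekeeping members as the denominator, the log2 ratio of Rpl10l differed by -2.91 in VCR relative to NC, -2.02 in High-VCR and -1.17 in Low-VCR relative to ALL, and that of Rpl39l by -2.58, -1.99 and -1.21, by 1.63 in Low-VCR relative to VCR and by 0.26 in ALL relative to NC, each with an adjusted p of 0.05, at the threshold (exact permutation). Leaving out a library gave the ratio of Rpl10l to Rpl10 a range of -4.41 to -3.43 in High-VCR relative to ALL, -1.76 to -0.77 in High-VCR relative to Low-VCR and -0.27 to 1.38 in High-VCR relative to VCR, and that of Rpl39l to Rpl39 a range of -4.34 to -3.36 in High-VCR relative to ALL and -1.51 to -0.53 in High-VCR relative to Low-VCR. Without High-VCR 2, both ratios had an adjusted p of 0.0429 in High-VCR relative to ALL and relative to Low-VCR (exact permutation). That adjustment was over fewer tests than the one with all libraries. The members' share of counts in Low-VCR was 1.72% without mitochondrially encoded genes.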
